A study of Mus musculus with 20 samples.

Results

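Emr1, Cx3cr1, Ccr2, Ly6c2, Csf1r, Ms4a7, Folr2, Cd163 and Cd14 are genes of blood monocytes and of the interstitial macrophages that monocytes give rise to in the lung. They were taken from the deposited table by symbol, 9 genes of the 24054 listed, and all 9 were among the 16193 with enough counts to be tested. Emr1 is the older symbol of Adgre1, which encodes the macrophage antigen F4/80. The members are named by their role, and the rule uses no measured value. They were, however, chosen with earlier results of these data known. The shares over all genes set beside them below are therefore descriptions. RNA had been sequenced from whole lung of female C57Bl6 mice in 20 libraries from 4 groups, each with 5 biological replicates. WT_saline and WT_HDM are wild-type mice given saline or house dust mite extract (HDM), an inhaled allergen that causes allergic airway inflammation, and KO_saline and KO_HDM are mice labelled Alox15 knockout, given the same. HDM was instilled in the nose every day for 14 days. The titles of the control libraries say PBS where another label says saline, and the age of the mice and the allele are not given in the sources used here.

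Alox15, a lipoxygenase gene whose enzyme adds oxygen to fatty acids, was the targeted gene, and its level went against the label. It stood at 4.58 ± 4.00 CPM (counts relative to the TMM-scaled library total; mean ± SD, n = 5) in WT_saline, 18.6 ± 8.53 CPM in WT_HDM, 40.8 ± 2.45 CPM in KO_saline and 41.1 ± 4.07 CPM in KO_HDM. The libraries labelled knockout are therefore named by their label throughout, and every direction between genotypes below is a direction between labels. Total counts per library ran from 12573113 to 23305673. Adipoq, an adipocyte gene, reached 85.1 to 169 CPM in WT_saline 2, WT_saline 4, WT_HDM 2, WT_HDM 4 and KO_HDM 5 and at most 27.7 CPM in the other 15 libraries. Alb and 3 further liver genes summed to 27.6 to 97.8 CPM in KO_HDM and to at most 2.64 CPM in any other library. As markers of the labelled tissue, 6 endothelial genes summed to 1113 to 4065 CPM over the 20 libraries, and Marco, a gene of alveolar macrophages, ranged from 1.09 to 92.1 CPM. In whole lung, fewer cells of a type and less RNA per cell cannot be told apart.

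Monocytes leave the bone marrow through the chemokine receptor Ccr2, and in the mouse they come as a classical kind, with high Ly6C and Ccr2, and a non-classical kind, with low Ly6C and high Cx3cr1. Both carry Csf1r, the receptor for the cytokines Csf1 and Il34. Monocytes that enter the lung can become interstitial macrophages, which lie in the tissue around airways, vessels and nerves, while alveolar macrophages in the airspace form mainly before and around birth and renew themselves. Ms4a7, Folr2 and Cd163 are used as markers of subsets of interstitial and tissue macrophages.

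Ly6c2, which encodes the Ly6C antigen of classical monocytes, has a near-identical neighbour, Ly6c1, which lung endothelium expresses. The coding sequences of the pair are 396 bases each and are identical at 387 of them (97.7%). The first 150 bases show how similar they are, with the 6 bases that differ in capitals (5′ to 3′, from the reference transcripts).
Ly6c1: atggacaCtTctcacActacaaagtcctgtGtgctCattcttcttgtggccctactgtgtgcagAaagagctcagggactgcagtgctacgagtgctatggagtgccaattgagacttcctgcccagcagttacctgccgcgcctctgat
Ly6c2: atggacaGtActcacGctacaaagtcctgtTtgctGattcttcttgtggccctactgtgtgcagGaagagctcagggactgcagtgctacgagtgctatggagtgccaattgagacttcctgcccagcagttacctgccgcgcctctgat
Of the 347 windows of 50 bases in the Ly6c2 coding sequence, 162 (46.7%) were found unchanged in a Ly6c1 transcript. The deposited counts are estimates that share such reads out between genes. They were not whole numbers for Ly6c2, Ccr2 and Cx3cr1 in 20 of 20 libraries and for Cd163 in 17 of 20 (tolerance 0.005). For the other 5 members they were whole in all libraries.

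RefSeq start sites (GRCm38.p6, 250 bases before to 50 after the start) were read for 6 of the 9 members, in 9 windows. Cd14 and Csf1r were left out of this search, and no start site was found for Emr1. The motif GAGGAA is an ETS site with the flank often bound by the macrophage factor PU.1. Of the windows, 1 each is shown for Ms4a7 and Ly6c2, the only ones of these 6 members with a match to it. For Cd163, which has none, 1 window is shown as well. Matches are in capitals, and each sequence is that of the gene's own strand, 5′ to 3′.
Ms4a7, chr19:11336097-11336396, minus strand: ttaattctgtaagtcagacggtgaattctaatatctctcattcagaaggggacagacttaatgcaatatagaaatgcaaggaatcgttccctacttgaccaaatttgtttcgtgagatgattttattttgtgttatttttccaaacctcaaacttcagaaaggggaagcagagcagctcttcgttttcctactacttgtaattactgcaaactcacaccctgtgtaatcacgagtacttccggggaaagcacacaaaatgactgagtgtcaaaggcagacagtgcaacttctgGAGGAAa
Ly6c2, chr15:75111922-75112221, minus strand: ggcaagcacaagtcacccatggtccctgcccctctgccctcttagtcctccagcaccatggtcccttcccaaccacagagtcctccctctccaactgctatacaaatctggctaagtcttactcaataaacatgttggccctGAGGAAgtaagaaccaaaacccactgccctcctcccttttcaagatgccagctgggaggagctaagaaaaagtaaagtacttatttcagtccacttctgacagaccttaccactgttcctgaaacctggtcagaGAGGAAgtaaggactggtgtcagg
Cd163, chr6:124304401-124304700, plus strand: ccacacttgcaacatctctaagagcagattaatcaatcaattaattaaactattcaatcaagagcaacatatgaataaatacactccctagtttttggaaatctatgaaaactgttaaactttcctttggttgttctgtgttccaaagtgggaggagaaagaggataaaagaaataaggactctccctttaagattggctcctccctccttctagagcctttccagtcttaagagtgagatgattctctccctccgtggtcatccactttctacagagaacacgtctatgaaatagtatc
Counted from the start, the Ms4a7 match lies at 44 to 49, and the Ly6c2 matches lie at -108 to -103 and at 27 to 32. GAGGAA on either strand is in 28.3% of all 32851 RefSeq windows of this length. TTGCNNAA, a form of the C/EBP site, is in 10.8% of them and in none of the 9 member windows. A match is only a description of the letters.

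The order of levels was read per kilobase of the longest protein-coding transcript. In WT_saline it was Csf1r (34.6 ± 3.75 CPM per kilobase), Ly6c2 (22.4 ± 6.53), Cd14 (15.3 ± 2.83), Ccr2 (9.75 ± 4.18), Emr1 (9.43 ± 1.09), Cx3cr1 (5.92 ± 1.02), Folr2 (3.59 ± 1.63), Cd163 (3.14 ± 1.11) and Ms4a7 (1.65 ± 0.772; SD, n = 5). Of the neighbours in this order, Emr1 and Cx3cr1 had ranges that did not overlap, and every other pair overlapped. In KO_HDM, Ms4a7 (22.6 ± 5.07 CPM per kilobase) had moved level with Ccr2 (22.6 ± 4.30), and Emr1 (44.6 ± 12.2) with Cd14 (47.2 ± 9.23) and Csf1r (52.5 ± 9.65). Folr2 (2.95 ± 1.57) and Cd163 (1.50 ± 1.39) were lowest there, and their ranges overlapped.

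**Figure D1:**
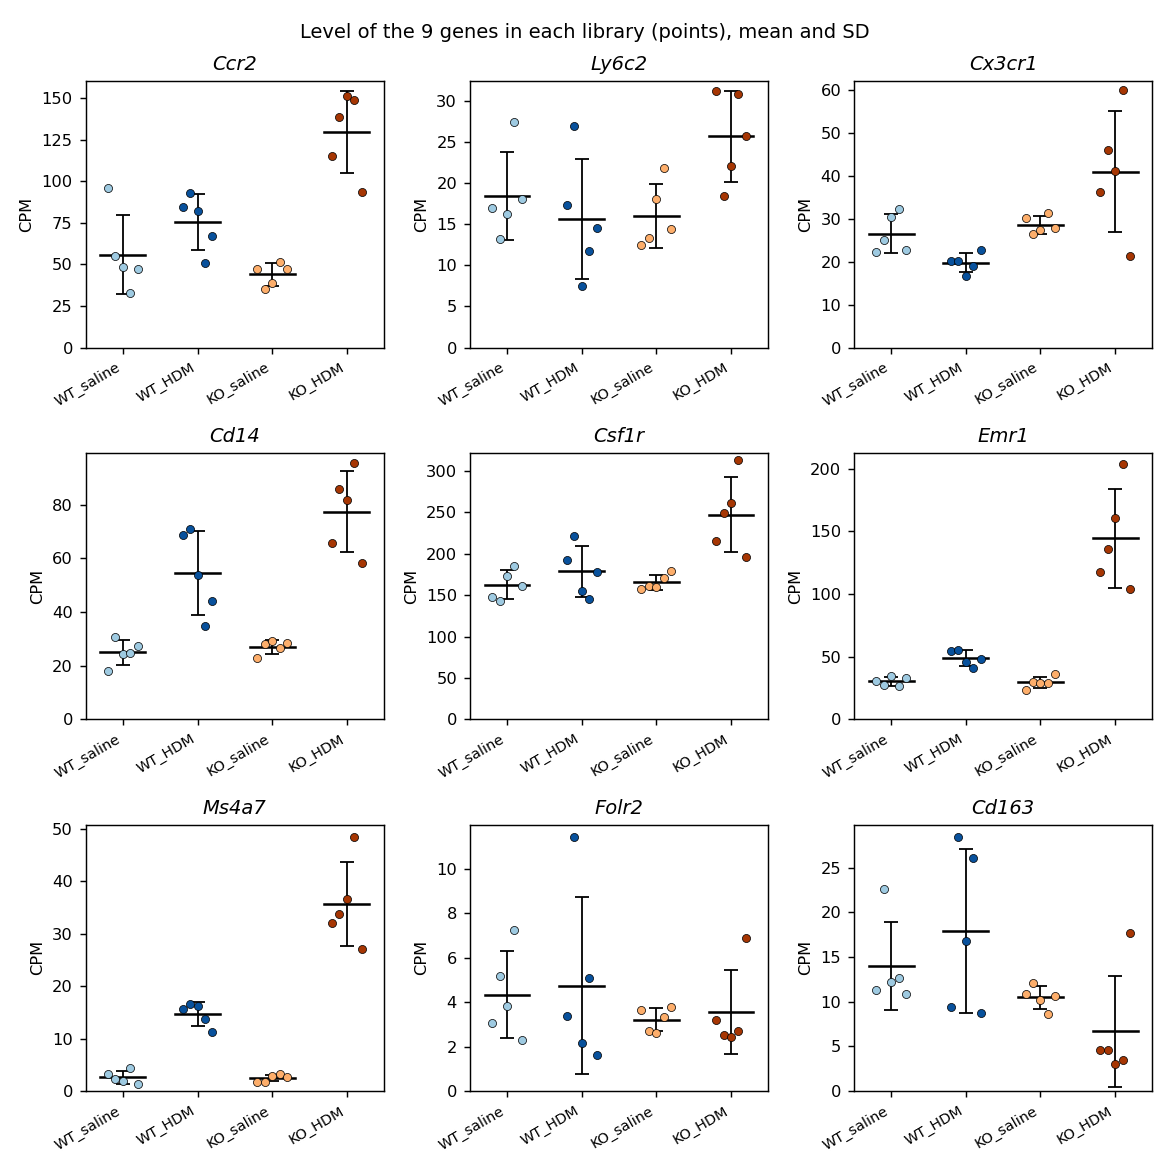
Level of each of the 9 genes in each library (CPM, 1 panel per gene, 5 points per group, with a bar at the group mean). Emr1 and Ms4a7 separate KO_HDM from all other groups, while Folr2 and Cd163 have single high libraries in several groups.

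The first question was which of these genes differ between HDM and saline lungs. In wild-type lungs, Ms4a7, Cd14 and Emr1 rose, 3 of the 9 members, where 13.6% of all genes tested rose, and none fell, where 16.5% did. These 3 were also the members whose HDM and saline libraries did not overlap, as was so for 11.6% of all genes. In lungs labelled knockout, 7 of the 9 rose, where 26.2% of all genes rose and 25.7% fell. Folr2 and Cd163 were the 2 that did not. In 5 of the 9 the groups did not overlap there (Ccr2, Cd14, Csf1r, Emr1 and Ms4a7), as in 43.9% of all genes. The members' median log2 fold change was 0.36 in wild type and 0.68 in lungs labelled knockout, against -0.02 and 0.02 over all genes.

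The second question was whether the genotype labels differ. Under saline no member was called in either direction, where 0.593% of all genes were higher and 0.315% lower in lungs labelled knockout. By edgeR no member had an unadjusted p under 0.05, DESeq2 and limma voom also called 0, and no member's groups were free of overlap, where those of 3.06% of all genes were. The members' median log2 difference was -0.05. Under HDM, Emr1, Ms4a7, Cx3cr1, Ccr2 and Csf1r were higher in KO_HDM than in WT_HDM, 5 of the 9, where 4.79% of all genes were higher and 1.88% lower. The members' median log2 difference was 0.72, against -0.01 over all genes. In Emr1, Ms4a7 and Ccr2 the groups did not overlap, as in 7.01% of all genes. The ribosomal transcript Rn45s took between 2.72% and 6.08% of counts for WT_HDM libraries and between 1.82% and 2.98% for those of KO_HDM, and its part in these differences was not tested. Emr1 was the 1 member called for a response to HDM that differed by label (the interaction), where 1.00% of all genes had a larger and 0.235% a smaller log2 fold change in lungs labelled knockout. In the interaction 6 of the 9 had an unadjusted p under 0.05 by edgeR. The largest p of these 6, that of Ly6c2 (0.0254), ranked only 1740 among the 16193 genes tested, so many other genes passed as well. DESeq2 called 4 members higher in the interaction, Emr1, Ccr2, Cx3cr1 and Ms4a7. It called 609 genes of all in either direction, a count not split by direction here. Comparisons that share a group of libraries are not independent of each other.

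**Figure D2:**
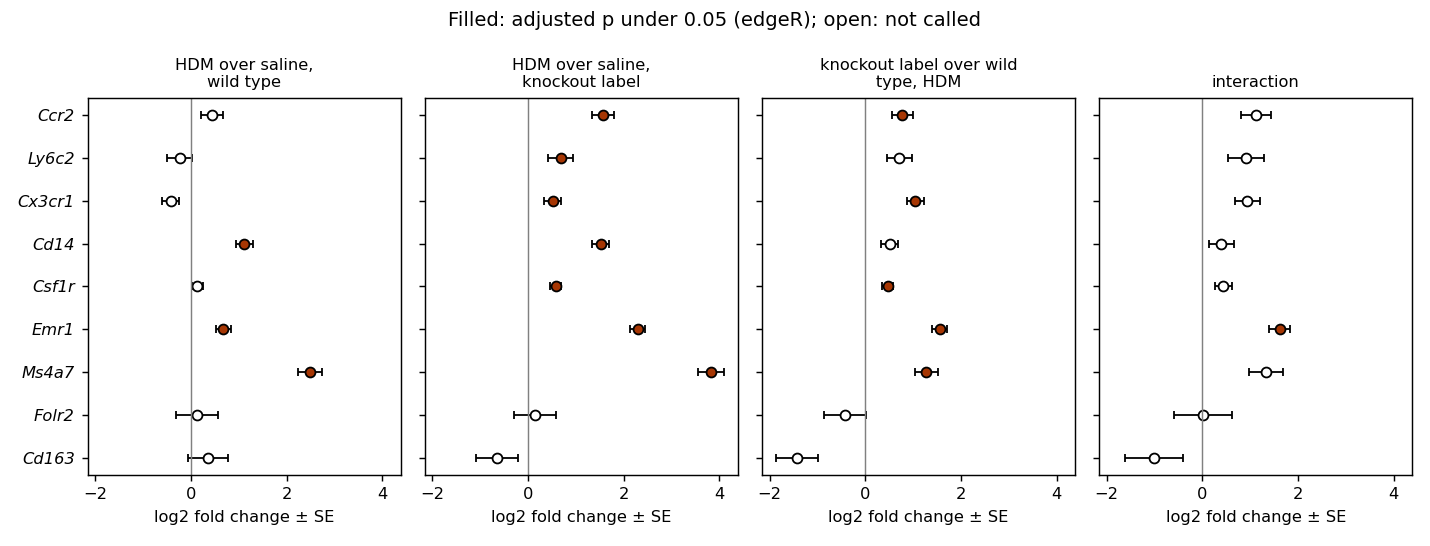
Log2 fold change of each of the 9 genes for HDM over saline in each label, KO_HDM over WT_HDM and the interaction. Bars are 1 standard error, and points are filled where the adjusted p is under 0.05. HDM over saline has 3 filled points in wild type and 7 in lungs labelled knockout, and Emr1 alone is filled in the interaction.

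Ccr2, the receptor through which classical monocytes are recruited, had 96.1, 55.3, 48.2, 32.6 and 47.2 CPM in the 5 WT_saline libraries and 84.7, 92.7, 82.1, 50.8 and 67.3 CPM in WT_HDM. It had 47.3, 35.0, 38.8, 51.4 and 47.4 CPM in KO_saline and 115, 139, 151, 149 and 93.7 CPM in KO_HDM. All 5 KO_HDM libraries lay above those of WT_HDM, with the lowest of them just above the highest WT_HDM library, and WT_saline 1 stood well above the rest of its group. The log2 fold change of HDM over saline was 1.56 ± 0.23 (SE, adjusted p = 1.99e-05) in lungs labelled knockout and 0.44 ± 0.23 (adjusted p = 0.155) in wild type. Without WT_saline 1 the wild-type value was 0.71 (adjusted p = 0.00640), past the threshold. KO_HDM exceeded WT_HDM by 0.78 ± 0.23 (adjusted p = 0.0443). This call was lost when any 1 of 10 libraries was left out (WT_HDM 1, 3, 4 or 5, KO_saline 1, 3 or 5, KO_HDM 2, 3 or 4), with values of 0.66 to 0.82 and adjusted p of 0.0505 to 0.111. The interaction, 1.12 ± 0.32, missed the threshold (adjusted p = 0.0910), and passed it without WT_saline 4 (1.27, adjusted p = 0.0418).

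Ly6c2 varied widely within groups. Its levels were 17.0, 13.3, 16.3, 27.5 and 18.0 CPM in WT_saline, 17.4, 27.0, 7.46, 11.8 and 14.6 CPM in WT_HDM, 12.4, 13.3, 18.1, 21.8 and 14.4 CPM in KO_saline and 31.3, 18.5, 22.1, 30.9 and 25.8 CPM in KO_HDM. All groups overlapped, although 4 of the 5 KO_HDM libraries lay above every KO_saline library. HDM over saline was 0.68 ± 0.27 in lungs labelled knockout (adjusted p = 0.0391) and -0.24 ± 0.27 in wild type (adjusted p = 0.545). The first call was lost when any 1 of 10 libraries was left out (WT_saline 1, 2 or 3, WT_HDM 4, KO_saline 1, 2 or 5, KO_HDM 1, 4 or 5), with values of 0.56 to 0.69 and adjusted p of 0.0503 to 0.113. KO_HDM against WT_HDM gave 0.72 ± 0.27 (adjusted p = 0.120), and 1.00 without WT_HDM 2 (adjusted p = 0.0209). Ly6c1, from which these estimates cannot be fully separated, went the other way in lungs labelled knockout, from 176 ± 23.0 to 114 ± 32.1 CPM (log2 fold change -0.62 ± 0.18, adjusted p = 0.00803). The counts of the pair summed gave -0.46 (adjusted p = 0.0266), a value set mainly by Ly6c1, which holds most of the pair's counts. How another division of the shared reads would move Ly6c2 was not tested.

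Cx3cr1 encodes the fractalkine receptor, which is highest on non-classical monocytes and is also found on one kind of interstitial macrophage. It had 22.3, 25.1, 30.4, 32.4 and 22.7 CPM in WT_saline and 20.2, 20.3, 16.6, 19.1 and 22.8 CPM in WT_HDM. It had 30.2, 26.4, 27.4, 31.5 and 27.9 CPM in KO_saline and 36.2, 46.1, 41.2, 60.0 and 21.3 CPM in KO_HDM. In KO_HDM, 4 libraries lay above every library of the other groups and KO_HDM 5 fell among those of WT_HDM. KO_HDM exceeded WT_HDM by a log2 difference of 1.05 ± 0.18 (adjusted p = 0.00175). HDM over saline was 0.51 ± 0.18 in lungs labelled knockout (adjusted p = 0.0235), a call lost without KO_HDM 2 (0.47, adjusted p = 0.0544) or KO_HDM 4 (0.29, adjusted p = 0.143). In wild type it was -0.42 ± 0.18 (adjusted p = 0.0886), and it passed the threshold without WT_saline 1, KO_HDM 4 or KO_HDM 5 (adjusted p down to 0.0197). The interaction was 0.94 ± 0.26 (adjusted p = 0.0820), and 1.10 without KO_HDM 5 (adjusted p = 0.00892).

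Cd14 is the co-receptor that hands bacterial lipopolysaccharide to Tlr4, and monocytes, macrophages and neutrophils carry it. It had 18.2, 30.8, 24.4, 24.8 and 27.3 CPM in WT_saline and 68.8, 71.0, 53.7, 34.8 and 44.2 CPM in WT_HDM. In KO_saline it had 22.9, 27.9, 29.2, 26.7 and 28.6 CPM and in KO_HDM 65.8, 85.7, 81.9, 95.5 and 58.3 CPM. Every HDM library lay above every saline library, in both labels. Cd14 rose by 1.12 ± 0.18 in wild type (adjusted p = 0.000171) and by 1.52 ± 0.18 in lungs labelled knockout (adjusted p = 1.82e-06), and the interaction was 0.40 ± 0.25 (adjusted p = 0.469). KO_HDM over WT_HDM was 0.51 ± 0.18 (adjusted p = 0.0929). It was called without WT_HDM 2 or KO_HDM 5 (0.62 and 0.60, adjusted p = 0.0470 and 0.0457).

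Csf1r, which monocytes and macrophages carry, had 148, 143, 174, 186 and 162 CPM in WT_saline and 193, 221, 155, 145 and 178 CPM in WT_HDM. In KO_saline it had 157, 161, 159.8, 171 and 179 CPM and in KO_HDM 215, 249, 261, 313 and 196 CPM. All 5 KO_HDM libraries lay above the KO_saline libraries, and WT_HDM 2 lay among those of KO_HDM. HDM over saline was 0.58 ± 0.12 in lungs labelled knockout (adjusted p = 0.000629) and 0.14 ± 0.12 in wild type (adjusted p = 0.426), with an interaction of 0.44 ± 0.17 (adjusted p = 0.212). KO_HDM exceeded WT_HDM by 0.47 ± 0.12 (adjusted p = 0.0259). That call was lost without WT_HDM 3, WT_HDM 4, KO_HDM 2, KO_HDM 3 or KO_HDM 4, with values of 0.36 to 0.47 and adjusted p of 0.0537 to 0.109.

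Emr1 encodes F4/80, an adhesion-type receptor of most mouse macrophages that monocytes carry at lower levels and eosinophils also carry. It had 30.8, 27.3, 34.5, 26.6 and 33.4 CPM in WT_saline, 54.8, 55.4, 46.2, 40.8 and 47.9 CPM in WT_HDM, 23.6, 29.9, 29.2, 28.7 and 35.9 CPM in KO_saline and 118, 136, 161, 204 and 104 CPM in KO_HDM. The saline groups overlapped, WT_HDM lay wholly above them, and KO_HDM lay wholly above WT_HDM. Emr1 rose 1.61-fold in wild type (log2 0.68 ± 0.15, adjusted p = 0.00249) and 4.90-fold in lungs labelled knockout (log2 2.29 ± 0.16, adjusted p = 5.90e-09). KO_HDM exceeded WT_HDM 2.95-fold (log2 1.56 ± 0.15, adjusted p = 4.86e-06), rank 12 by p among the 16193 genes. The interaction was 1.61 ± 0.22 (adjusted p = 0.00109), rank 6. It stayed between 1.42 and 1.71 with any 1 library left out (adjusted p of 0.000436 to 0.00464). Of the eosinophil genes, Prg2, Ccr3 and Il5ra rose with HDM in both labels and were not called between labels. With Epx, which was too low to test, they summed to 9.80 to 23.8 CPM in WT_HDM and 5.89 to 14.0 CPM in KO_HDM.

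Ms4a7, a tetraspan membrane protein of monocyte-derived macrophages, was low in saline lungs. It had 3.24, 2.23, 1.91, 4.37 and 1.27 CPM in WT_saline, 15.7, 16.6, 16.2, 13.7 and 11.2 CPM in WT_HDM, 1.77, 1.83, 2.95, 3.17 and 2.78 CPM in KO_saline and 32.0, 33.8, 36.7, 48.4 and 27.0 CPM in KO_HDM. As with Emr1, the saline groups overlapped, WT_HDM lay above both and KO_HDM lay above WT_HDM. Ms4a7 rose 5.62-fold in wild type (log2 2.49 ± 0.26, adjusted p = 1.88e-06) and 14.2-fold in lungs labelled knockout (log2 3.82 ± 0.27, adjusted p = 6.23e-09). KO_HDM exceeded WT_HDM 2.42-fold (log2 1.28 ± 0.24, adjusted p = 0.00286). The interaction, 1.33 ± 0.36, missed the threshold (adjusted p = 0.0718), and passed it without WT_saline 5 (1.52, adjusted p = 0.0246).

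Folr2, a folate receptor of tissue-resident macrophages, had 3.05, 5.18, 3.83, 7.27 and 2.31 CPM in WT_saline, 3.40, 11.5, 2.18, 5.07 and 1.63 CPM in WT_HDM, 3.64, 2.72, 2.60, 3.35 and 3.78 CPM in KO_saline and 3.20, 2.53, 2.43, 2.70 and 6.90 CPM in KO_HDM. The 5 highest libraries were WT_HDM 2, WT_saline 4, KO_HDM 5, WT_saline 2 and WT_HDM 4, the same 5 in which Adipoq exceeded 50 CPM. No comparison passed the test. HDM over saline was 0.13 ± 0.44 in wild type (95% interval -0.79 to 1.05, adjusted p = 0.855) and 0.14 ± 0.44 in lungs labelled knockout (-0.79 to 1.07, adjusted p = 0.808). These intervals still allow changes larger than those of Ccr2 (0.44) and Emr1 (0.68) in wild type.

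Cd163 encodes the receptor that takes up haemoglobin bound to haptoglobin. It had 11.4, 22.6, 12.2, 12.7 and 10.9 CPM in WT_saline, 9.45, 28.4, 16.8, 26.1 and 8.76 CPM in WT_HDM, 10.9, 12.1, 10.2, 8.61 and 10.7 CPM in KO_saline and 4.64, 4.58, 3.02, 3.47 and 17.7 CPM in KO_HDM. The 4 lowest libraries of all 20 were KO_HDM 1 to 4, while KO_HDM 5, with Adipoq at 167 CPM, stood apart from its group. With all libraries, HDM over saline was -0.65 ± 0.43 in lungs labelled knockout (adjusted p = 0.217) and 0.36 ± 0.42 in wild type (adjusted p = 0.561), and KO_HDM over WT_HDM was -1.42 ± 0.44 (adjusted p = 0.0585). Without KO_HDM 5 alone, Cd163 fell by 1.42 in lungs labelled knockout (adjusted p = 0.00155), was -2.19 in KO_HDM against WT_HDM (adjusted p = 0.000535) and had an interaction of -1.77 (adjusted p = 0.0470). Leaving out WT_HDM 1 or WT_HDM 5 also brought the difference between labels under HDM past the threshold, with adjusted p up to 0.0424.

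Without the 5 Adipoq-rich libraries, Cd163 was the 1 member that fell. It was -1.43 for HDM in lungs labelled knockout (adjusted p = 1.39e-05), 0.00 for HDM in wild type (adjusted p = 0.997), -1.55 for KO_HDM over WT_HDM (adjusted p = 0.000785) and -1.43 for the interaction (adjusted p = 0.0329). The members that rose with HDM numbered 3 and 7 in this fit, which called 3497 and 8947 of all genes in either direction. Those higher in KO_HDM than in WT_HDM numbered 7 rather than 5, beside 1198 genes of all called in either direction, since Ly6c2 (0.96, adjusted p = 0.0377) and Cd14 (0.57, adjusted p = 0.0442) also passed. The interaction of Emr1 was 1.79 (adjusted p = 0.00482) and that of Ccr2, 1.36, also passed (adjusted p = 0.0471). Folr2 passed in none, with -0.36 and -0.26 for HDM in the 2 labels.

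**Figure D3:**
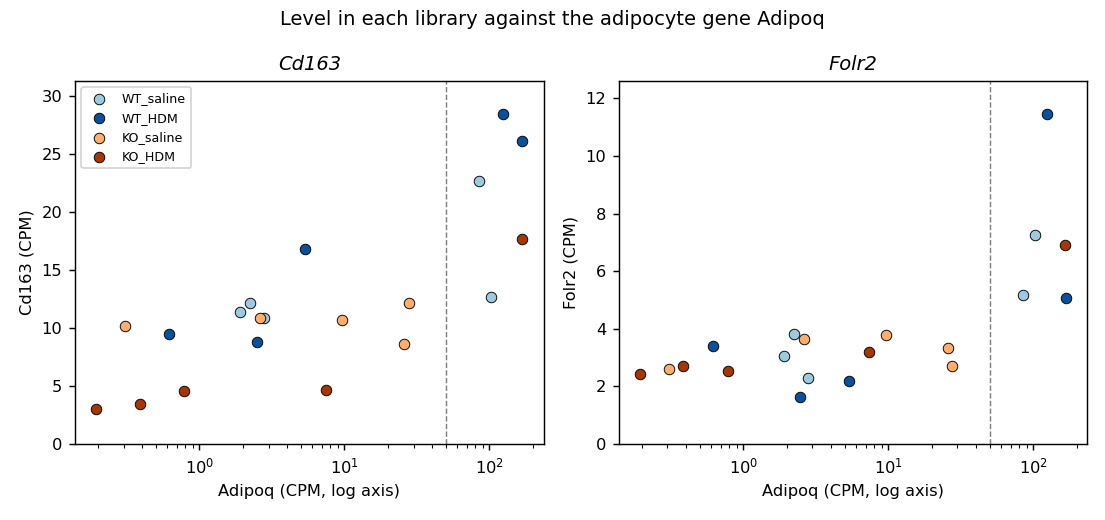
Cd163 (left) and Folr2 (right) in each library (CPM, linear axis) against Adipoq (CPM, log axis), coloured by group, with a dashed line at 50 CPM. All 5 libraries right of the line have more Folr2 than any other library, and the KO_HDM library there has 17.7 CPM of Cd163 against 3.02 to 4.64 CPM in the other 4.

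Ratios of members within a library do not depend on how the library was scaled. They were chosen after the values were seen and compared with exact two-sided permutation tests, for which the smallest p that 5 against 5 can give is 0.00794, adjusted over 12 tests. Emr1 counts per Csf1r count were 0.188 in WT_saline, 0.276 in WT_HDM, 0.177 in KO_saline and 0.576 in KO_HDM (geometric means). The KO_HDM libraries, at 0.533 to 0.650, all lay above WT_HDM at 0.250 to 0.297 (log2 difference 1.06, adjusted exact p = 0.0136). The saline groups overlapped (log2 difference -0.09, exact p = 0.492). Ms4a7 per Csf1r count went from 0.0147 to 0.0823 in wild type and from 0.0147 to 0.143 in lungs labelled knockout, and differed between labels under HDM by 0.80 (adjusted exact p = 0.0136). Both ratios were higher with HDM in each label (adjusted exact p = 0.0136 in all 4 tests). Ccr2 per Cx3cr1 count went from 1.52 to 3.28 in lungs labelled knockout (adjusted exact p = 0.0136) and from 1.99 to 3.75 in wild type (exact p = 0.0476, adjusted exact p = 0.0714), or, without WT_saline 1, by a log2 difference of 1.19 (adjusted exact p = 0.0119). It did not pass between labels under HDM, with a log2 difference of -0.19 (exact p = 0.405). Under saline it was -0.39 (exact p = 0.365), and -0.64 without WT_saline 4 (adjusted exact p = 0.0357).

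**Figure D4:**
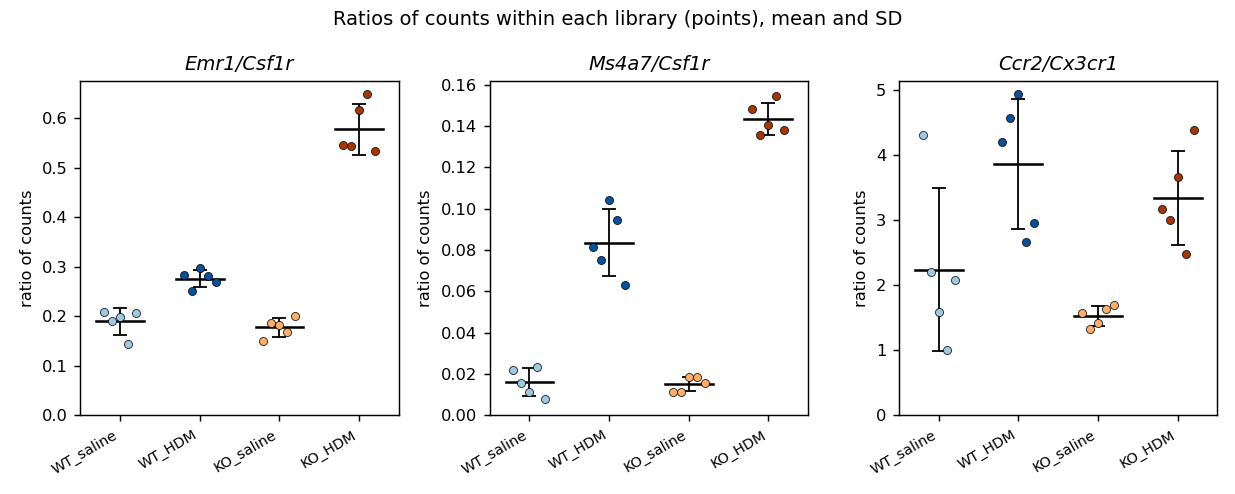
Ratio of counts in each library for Emr1 to Csf1r, Ms4a7 to Csf1r and Ccr2 to Cx3cr1 (linear axis), by group. Each group has 5 points, with a bar at the arithmetic mean and the SD. KO_HDM lies above WT_HDM in the first pair of ratios and overlaps it in the third.

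With the group means removed, the members did not vary as 1 block. Over the 20 libraries, which share the scaling, Pearson's r of the deviations was 0.777 for Csf1r with Emr1, 0.735 for Csf1r with Cx3cr1, 0.681 for Csf1r with Cd14 and 0.724 for Folr2 with Cd163. It was -0.644 for Cx3cr1 with Cd163 and -0.534 for Emr1 with Cd163. The 5 Adipoq-rich libraries are included, among them KO_HDM 5, which stood apart from its group in Folr2 and Cd163. How r would stand without them was not tested. Ly6c2 with Ccr2, both genes of classical monocytes, had r = -0.05. Over all 20 libraries, group differences included, the genes most like Ccr2 were Ap1s2, Cysltr1 and Med7 (r = 0.957, 0.956 and 0.953), and those most like Emr1 were Tm6sf1, Rassf4 and Cd44 (r = 0.974, 0.974 and 0.973). Ms4a7 was near to Ctss and Cd200r1 (r = 0.984 and 0.983), Cd14 to Olfm1, Metrnl and Rnf149 (0.974, 0.970 and 0.965) and Csf1r to Tnfrsf1b, Grn and Glrx (0.955, 0.943 and 0.942). Cx3cr1 was nearest to Lst1, C5ar1 and Iqgap2 (r = 0.861, 0.852 and 0.831), and Ly6c2 to Emp3, Siglec1 and Lsp1 (0.787, 0.783 and 0.776). Folr2 was nearest to Ifi27l2a, Stard7 and Btnl9 (r = 0.902, 0.860 and 0.858), and Cd163 to Golga4, Adrb3 and Me3 (0.905, 0.888 and 0.888). Adrb3 is the adrenergic receptor of fat.

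Among the ligands of these receptors, HDM changed those of Ccr2 and Cx3cr1, in opposite directions. Of the 3 Ccr2 ligands Ccl2, Ccl7 and Ccl12, chemokines that attract monocytes, all 3 rose with HDM in wild type (log2 2.16, 2.71 and 2.02) and in lungs labelled knockout (1.54, 2.61 and 2.44). None was called between labels or in the interaction, and their levels were low, at most 13.7 CPM summed in any library. Cx3cl1, the ligand of Cx3cr1, fell by 0.65 in wild type (adjusted p = 0.00520) and by 0.90 in lungs labelled knockout (adjusted p = 0.000136). The Csf1r ligands Csf1 and Il34 were not called in any comparison. Of 5 partners of Cd14 and Cd163, Tlr4 (0.69 and 1.35) and its subunit Ly96 (1.05 and 1.43) rose in both labels. Lbp, which delivers lipopolysaccharide to Cd14, rose in wild type alone (0.47), with no call in the interaction (-0.37). Hp, the haptoglobin that Cd163 binds with haemoglobin, fell in both (by 1.15 and by 1.10), and Hmox1, which breaks down haem, was not called.

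Among transcription factors of the lineage, Maf (log2 0.38) and Runx1 (log2 0.35) rose with HDM in wild type. In lungs labelled knockout Maf (1.42), Runx1 (0.72), Spi1 (0.68) and Irf8 (0.66) rose. Maf was higher in KO_HDM than in WT_HDM (0.93), as was Zeb2 (0.39), and Maf was called in the interaction (1.04, adjusted p = 0.00816). Maf is a factor of mature macrophages, and Spi1 encodes PU.1. None of these 5 was called between labels under saline, where only 0.593% of all genes were higher and 0.315% lower.

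Other genes of classical monocytes rose in part. Ccr1, Itgam and S100a4 did in wild type, 3 of 8 (2.24, 0.75 and 0.50). The same 3 with Vcan rose in lungs labelled knockout, 4 of 8 (2.19, 1.95, 1.55 and 1.41). Of all genes, 13.6% rose in wild type and 26.2% in lungs labelled knockout. Itgam (1.42) and S100a4 (1.03) were also higher in KO_HDM than in WT_HDM, and S100a4 was called in the interaction (1.05, adjusted p = 0.0390). Of 8 other genes of non-classical monocytes, Treml4 (-1.26), Cd300e (-1.07) and Ace (-0.62) fell in wild type and none rose. In lungs labelled knockout these 3 fell too (-1.48, -1.69 and -0.98) and 3 rose, Pou2f2 (1.01), Spn and Itgal. Of all genes, 16.5% fell in wild type and 25.7% in lungs labelled knockout. Fcgr4 (1.14), Spn (0.75) and Itgal (0.55) were higher in KO_HDM than in WT_HDM, where 4.79% of all genes were. Ace is also an enzyme of lung endothelium, and 5 and 6 of 6 endothelial genes fell with HDM in the 2 labels. Whether these endothelial levels have a part in the values of Ace was not tested.

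Of 12 further genes of interstitial macrophages, 6 rose with HDM in wild type and none fell. Of all genes, 13.6% rose and 16.5% fell. The 6 were led by C1qb (1.56), C1qa (1.30), C1qc (1.23) and the chemokine Pf4 (1.19). C1qa, C1qb and C1qc encode the chains of C1q, a part of the first component of complement. In lungs labelled knockout 8 of the 12 rose, where 26.2% of all genes rose and 25.7% fell. The 8 were led by C1qb (2.48), C1qc (2.42), C1qa (2.40) and the Fc receptor Fcgr1 (1.98). The 2 of the list that fell were Lyve1 (-1.71) and Gas6 (-0.81), named because they were the exceptions. Between labels under HDM 6 of the 12 were higher, where 4.79% of all genes were, with Fcgr1 (1.50), Pf4 (1.18) and Cd68 (1.13) foremost. Lyve1 was lower (-1.15), as were 1.88% of all genes. Lyve1 marks a macrophage subset that carries Folr2 and Cd163 as well as lymphatic vessels. Fcgr1 was called in the interaction (1.81, adjusted p = 0.0162). The medians of this list were 0.67 and 1.65 for HDM in the 2 labels and 0.83 between labels under HDM. Between labels under saline 0 of 12 were called, where only 0.593% of all genes were higher and 0.315% lower.

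Genes of other cells moved with some of these differences. Of the 6 neutrophil genes with counts, 4 were higher in KO_HDM than in WT_HDM, where 4.79% of all genes were. These were S100a8 (1.88), S100a9 (1.54), Csf3r (1.02) and Mmp9 (1.02). The 6 summed to 133 to 338 CPM in KO_HDM against 66.5 to 169 CPM in WT_HDM. Under saline, where no member was called, 1 of the 6 was higher in libraries labelled knockout (Retnlg, 2.29-fold). Over all genes 0.593% were higher. The groups did not overlap in 4 of the 6, as in 3.06% of all genes. Among these, though not called, were S100a8 (36.3 ± 7.36 against 11.3 ± 3.29 CPM) and S100a9 (60.1 ± 12.2 against 19.0 ± 4.60 CPM). The median log2 difference of the 6 was 0.96, and they summed to 162 to 239 CPM against 99.2 to 149 CPM. The part of neutrophils in the values of Cd14 and Itgam was not tested. Of 8 alveolar macrophage genes none rose and 2 fell with HDM in each label, with Marco, a scavenger receptor, at -2.15 and -2.80. Over all genes, 16.5% fell in wild type and 25.7% in lungs labelled knockout. Ptprc, which all leukocytes express, rose by 0.68 in wild type (adjusted p = 0.0418) and by 1.38 in lungs labelled knockout (adjusted p = 0.000133), and was not called between labels. The 4 red blood cell genes were higher in libraries labelled knockout under both treatments and fell with HDM in both labels. Liver genes were raised in KO_HDM, and Clec4f, which defines liver macrophages, had 0.0539 to 0.487 CPM there, at most 10 counts in a library, and at most 4 counts in any library of the other groups. The 3 other liver macrophage genes looked at, Vsig4, Cd5l and Timd4, had ranges in KO_HDM that overlapped those in WT_HDM. The part of liver tissue in the members' values was not tested. It cannot be told apart from the other differences of the KO_HDM group.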

How the data were processed

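Expected counts per gene and library, not normalized, are what the authors deposited. The submitters' processing notes list RSEM 1.2.15, which estimates such counts, and the aligner Bowtie2 2.1.0. They also list hg38, which is a build of the human genome, while the symbols are those of mouse, so no gene coordinates are given for the counts. Per the labels' protocols, RNA was selected with oligo-dT and libraries kept the strand. The same protocol also mentions depletion of ribosomal RNA. RSEM divides reads that match several genes, so the split between Ly6c1 and Ly6c2 is uncertain.

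Expected counts were rounded, filtered with filterByExpr by group (16193 of 24054 genes kept) and scaled with TMM factors. They were fitted in R 4.3.3 with edgeR 4.0.16, using 1 mean per group over all 20 libraries with 16 residual degrees of freedom. Robust quasi-likelihood F tests were made for 5 comparisons: HDM over saline in each label, knockout label over wild type under each treatment, and the difference of the HDM responses (the interaction). Benjamini-Hochberg adjustment ran over all genes tested, and an adjusted p under 0.05 counts as a call, as rising or as falling. Values after ± are standard errors for log2 fold changes and SD for CPM.

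Alternatives were DESeq2 1.42.0, its size factors in edgeR, limma 3.58.1 voom, no filter, the compared groups alone, a replicate block, Ly6c1 and Ly6c2 summed, and fits without the 5 libraries with Adipoq at 50 CPM or more or without each library in turn. The scripts were tested on simulated counts. Of 190 pairs of libraries none was identical. Libraries totalled between 15601878 and 21715842 counts (WT_saline), 12573113 and 20662632 (WT_HDM), 21120878 and 23305673 (KO_saline) and 17840138 and 21082770 (KO_HDM), so that 1 CPM is more than 10 counts.

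Named genes were the 9 members in every comparison, genes of 17 lists of ligands, partners and cell types (up to 4 called genes per list and comparison by size of change, and ligands and partners whatever their values), and the 3 genes nearest to each member by Pearson's r of log2 CPM with a prior count of 2. The members and lists were chosen with earlier results of these data known. The liver macrophage genes Clec4f, Vsig4, Cd5l and Timd4 and the ratios of members were chosen after values were seen. Timd4 was also in the planned list of interstitial macrophage genes. The labels call the replicates biological and do not name the animals. Some results for neighbouring genes and transcription factors are not reported here.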

Additional observations from a re-analysis of the deposited data

Results flagged for a closer look

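In 3 of 36 groups of 5 values (9 members in 4 groups), 1 library stood so far from the others that the gap to its neighbour exceeded 0.71 of the group's range. Chance gives about 1 such group in 20. Folr2 in KO_HDM 5 was 6.90 CPM, with the next library at 3.20 CPM. Cd163 in the same library was 17.7 CPM, with the next at 4.64 CPM, and Cd163 in WT_saline 2 was 22.6 CPM, with the next at 12.7 CPM. Both libraries are among the 5 with Adipoq at 50 CPM or more, at 167 CPM in KO_HDM 5 and 85.1 CPM in WT_saline 2. The part of adipose tissue in these values was not tested.

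Emr1 differed between the labels in its response to HDM, by 1.61 on the log2 scale in the interaction, with edgeR's adjusted p of 0.00109. The rise was seen in all 5 HDM libraries of each label against every saline library of the same label.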

How the results depend on the processing

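Of 1211 values of members recomputed under the alternatives, 1124 kept their direction and side of the threshold, 30 lost a call, 27 gained one and 30 changed sign. The cause of these changes was not tested unless stated. Counts of all genes called moved for HDM in wild type with the compared groups alone (2854, with Cx3cr1 then the 1 member lower), with DESeq2 for the labels under saline (316) and for the interaction (609, with 4 members higher: Emr1, Ccr2, Cx3cr1 and Ms4a7). Under HDM, DESeq2 and limma voom each called 1 member lower in KO_HDM, Cd163 (adjusted p = 0.0115 and 0.0239). Without the Adipoq-rich libraries 1 member, Cd163, was lower for HDM in lungs labelled knockout, between labels under HDM and in the interaction, where 2 members were higher and 103 genes were called. Cx3cr1 lost its call for HDM in lungs labelled knockout with limma voom (adjusted p = 0.0525) and with the compared groups alone (adjusted p = 0.0567), and Csf1r lost its call between labels under HDM with the compared groups alone (adjusted p = 0.0874).

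Members' own values changed sign only where the main value was not called. Put in place of Ly6c2, the sum of Ly6c1 and Ly6c2, which consists mostly of Ly6c1 counts, gave -0.46 for HDM in lungs labelled knockout, 0.34 between labels under saline and -0.13 in the interaction. Folr2 was -0.13 with limma voom and -0.36 without the Adipoq-rich libraries for HDM in wild type, and in that last fit -0.26 for HDM in lungs labelled knockout, 0.084 between labels under saline and 0.18 under HDM. Its interaction was -0.013 with no filter. Ms4a7 between labels under saline was 0.042 with limma voom and 0.27 without the Adipoq-rich libraries, where its ratio to Csf1r differed by 0.246. In that fit 3 wild-type libraries remain under each treatment, and the ratios of Emr1 and Ms4a7 to Csf1r passed the threshold only for HDM in lungs labelled knockout. Between labels under HDM their log2 differences were 1.05 and 0.84 (adjusted exact p = 0.0686), with fewer libraries and so a larger smallest p.

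With each library left out in turn, all genes called ranged from 3691 to 5896 for HDM in wild type, 7614 to 9017 in lungs labelled knockout, 102 to 180 between labels under saline, 576 to 1396 under HDM and 79 to 260 for the interaction. In the same order, members higher numbered 3 to 4, 5 to 7, 0 to 0, 3 to 7 and 1 to 2, and members lower 0 to 1, 0 to 1, 0 to 0, 0 to 1 and 0 to 1. Log2 fold changes that changed sign ranged from -0.46 to 0.40 (Folr2, HDM in wild type), -0.24 to 0.25 (Folr2, HDM in lungs labelled knockout), -0.80 to 0.20 (Folr2, labels under HDM), -0.37 to 0.65 (Folr2, interaction), -0.010 to 0.089 (Csf1r, labels under saline), -0.14 to 0.032 (Emr1, labels under saline) and -0.24 to 0.23 (Ms4a7, labels under saline), and the log2 ratio of Ms4a7 to Csf1r between labels under saline from -0.231 to 0.164.

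The labels do not say that a replicate number pairs libraries, and not every pair of the same number correlated, so the numbers were not taken as a pairing. Of 30 pairs of libraries with the same number, 17 had deviations from the group means that correlated above 0.1 (r from -0.457 to 0.506). For each library, r with the libraries of other groups was averaged by replicate number. In 9 of 20 libraries this mean was highest for their own number, and how many chance would give was not tested. It is at most a hint of shared variation, from the data and not from the design. A fit with the replicate block called 5058, 8584, 160, 1047 and 246 genes in the 5 comparisons and 3, 7, 0, 5 and 1 members higher, and changed no call of a member (interaction of Emr1 1.60, adjusted p = 0.00484). Depth did not keep any member from being tested.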
